A study of Mus musculus with 14 samples.

Results

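The genes described here carry the vitamin D signal and the transcellular uptake of calcium: Vdr, Cyp24a1, Cyp27b1, Trpv6, S100g and Atp2b1. They were chosen by name as rows of the deposited count table, and all 6 were found among its 21898 genes. The table comes from RNA sequencing of the colon of wild-type mice, 7 samples after gavage with Bacteroides thetaiotaomicron, an anaerobic gut bacterium that breaks down polysaccharides, and 7 after gavage with phosphate-buffered saline (PBS). The series title links this bacterium, saliva and hypertension, and the comparison asks which colonic genes differ after the gavage. The labels give no age, strain, dose, time of sampling or part of the colon. Titles number them as biological replicates without saying whether each is 1 animal, so a p-value here reflects only how these samples spread, in part perhaps for technical reasons. The groups are given by the titles. The batch entry, like the treatment entry, is the same for all samples, so no value could be computed within batches.

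Vitamin D acts through its receptor, the nuclear receptor VDR, which binds DNA with a retinoid X receptor and turns on genes of calcium uptake. Cyp27b1 encodes the hydroxylase that makes the active hormone, mainly in kidney, and Cyp24a1 encodes the hydroxylase that breaks it down and is itself induced by the receptor. In the absorptive cell, calcium enters across the brush border through the channel TRPV6, is carried through the cytosol by calbindin-D9k, the product of S100g, and leaves across the basolateral membrane through the calcium pump PMCA1, the product of Atp2b1. The small intestine does most of the regulated uptake, and the colon also takes up calcium.

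The start regions of Trpv6 and S100g are shown because these were the members whose levels spread most between libraries. Each is given on the gene's own strand, from 250 bases before to 50 bases after the start annotated by RefSeq on GRCm38.p6, with capitals for AGGTCA and GGTTCA, hexamers that nuclear receptors such as VDR can bind, on either strand, and for TATAAA on the gene's strand. Trpv6 (chr6:41636356-41636655, minus strand) and S100g (chrX:162964550-162964849, minus strand) read as follows.
Trpv6: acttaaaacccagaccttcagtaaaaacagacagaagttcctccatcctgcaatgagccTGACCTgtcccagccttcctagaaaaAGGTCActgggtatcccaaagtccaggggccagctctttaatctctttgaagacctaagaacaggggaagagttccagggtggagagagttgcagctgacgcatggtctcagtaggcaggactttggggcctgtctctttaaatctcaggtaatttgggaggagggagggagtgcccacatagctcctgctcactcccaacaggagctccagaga
S100g: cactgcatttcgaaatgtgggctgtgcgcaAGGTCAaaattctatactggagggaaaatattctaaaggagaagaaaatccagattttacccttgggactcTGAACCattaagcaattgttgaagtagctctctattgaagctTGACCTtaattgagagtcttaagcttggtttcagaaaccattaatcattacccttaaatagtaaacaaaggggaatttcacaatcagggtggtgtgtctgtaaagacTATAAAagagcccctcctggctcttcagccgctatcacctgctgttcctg
Trpv6 held AGGTCA at bases -165 to -160 and, on the opposite strand, at bases -191 to -186. S100g held AGGTCA at bases -220 to -215 and, on the opposite strand, at bases -107 to -102, with GGTTCA on the opposite strand at bases -149 to -144. AGGTCA stood on either strand in 16.3% of 32851 such windows and GGTTCA in 10.4%. A direct repeat of either hexamer or of both, spaced by 3 bases, was found on neither strand in the members' windows, and each of the 4 combinations stood in 0 to 2 of all windows. S100g held TATAAA on its own strand at bases 1 to 6, as did 8.32% of windows somewhere. Windows were matched for 5 of the 6 genes, all but Cyp24a1, and sequence outside these windows was not searched. Those of Vdr and Atp2b1 held none of these hexamers and several copies of GGGCGG, the letters of a GC box, which 35.7% of windows held on either strand. The GC content was 41.0% for S100g, 51.3% for Trpv6 and 61.3% for Vdr, beside a median of 52.7%.

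The members were expressed at very different levels. On the authors' FPKM scale, which divides counts by gene length and library total, Vdr averaged 69.3 ± 12.9, Atp2b1 16.8 ± 2.31, S100g 13.7 ± 22.3, Trpv6 0.398 ± 0.501 and Cyp27b1 0.0880 ± 0.0638 FPKM (SD over 14 libraries). Cyp24a1 was at 0 in all of them. Vdr stood above Atp2b1 in 14 of 14 libraries, and 97.0% of the genes in the table had a lower mean. The lower places in that order were less firm: Atp2b1 stood above S100g in 11 libraries, S100g above Trpv6 in 10 and Trpv6 above Cyp27b1 in 9 of 14. The libraries held abundant mRNA for the receptor and for the exit pump, little for the entry channel, and a calbindin mRNA level that depended on the library.

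**Figure D1:**
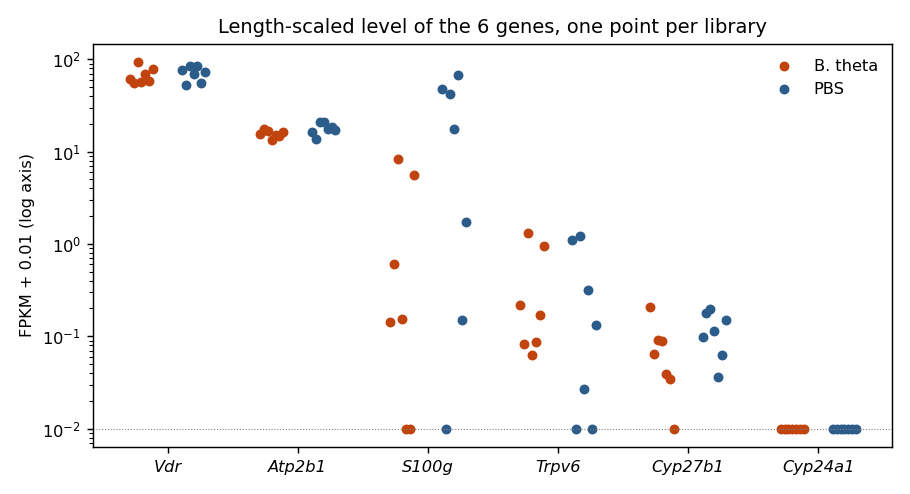
Deposited FPKM values plus 0.01 on a log axis for the 6 genes, 1 point per library, with B. thetaiotaomicron libraries left of PBS libraries and the dotted line at a value of 0. Vdr and Atp2b1 form tight clusters, S100g runs from 0 to 67.5 FPKM, and Cyp24a1 lies at 0 throughout.

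Total counts ranged from 13150140 to 16781708 per library. A distal hindgut score, the mean log2 CPM of HOX genes of the hindgut (CPM, counts scaled to a common library size), ran from 0.637 to 4.23 in B. thetaiotaomicron libraries (median 1.961) and from 0.399 to 5.88 in PBS libraries (median 3.40). On the first principal component (45.9% of the variance), 4 libraries had the most negative coordinates, B. thetaiotaomicron sample 3 and PBS samples 1, 3 and 5, and PBS sample 4 was far from all others on the second. Colonic epithelial markers were present but uneven among libraries, with Krt20 at 664 ± 242 FPKM and Car1 at 1190 ± 1326 FPKM (SD over 14 libraries). In PBS libraries Aqp8 ran from 27.4 to 1075 CPM and Slc9a3 from 27.1 to 1235 CPM. The lowest Slc51a value was 0 in both groups. Of 13 macrophage and dendritic cell markers, all tested, 3 passed an edgeR adjusted p of 0.05 as higher with the bacterium, beside 0.156% of all genes tested. Without the 4 libraries of most negative coordinates, 0 of these markers and 0 of all genes passed. The summed level of the 13 markers was 961 to 1250 CPM in B. thetaiotaomicron libraries and 739 to 1012 CPM in PBS libraries. Their part in the results below was not tested. Of 12 small intestinal enterocyte genes, 6 passed the count filter, and Apoa4 was at 0 in all libraries. Their summed level was 519 to 775 CPM in B. thetaiotaomicron libraries and 434 to 766 CPM in PBS libraries. Most of it came from Apob, Fabp2 and Slc5a1, with means of 189, 230 and 165 CPM with the bacterium and 203, 158 and 187 CPM with PBS. Sis, Lct, Apoa1 and Slc2a2 averaged at most 0.713 CPM with the bacterium and 2.34 CPM with PBS.

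Of the 6 genes, 3 passed the filter on low counts (Vdr, S100g and Atp2b1) and 0 of these passed an adjusted p of 0.05 by edgeR's quasi-likelihood test, DESeq2 or limma-voom. Over all 14070 genes tested, 0.249% passed in edgeR (0.156% higher and 0.0924% lower with the bacterium) and 3.18% in DESeq2. By unadjusted p under 0.05 in edgeR, S100g and Atp2b1 were below, as were 15.2% of all genes. S100g was tested because 7 libraries, 5 of them from the PBS group, exceeded the filter's 0.671 CPM, and Trpv6 was left out because 6 did. In bulk tissue, fewer cells of a type and less RNA per cell cannot be told apart.

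Vdr, the receptor gene, had 315 to 536 CPM in B. thetaiotaomicron libraries (median 346) and 298 to 498 CPM in PBS libraries (median 410). The groups overlapped over nearly their whole range, and the highest library of all was B. thetaiotaomicron sample 3. The means were 382 ± 81.9 CPM with the bacterium and 403 ± 77.6 CPM with PBS (SD, n = 7 each). The log2 fold change was -0.08 ± 0.14 (SE; edgeR adjusted p = 0.833), and the interval of about 95% ran from -0.36 to 0.20. Its sign was positive with the distal hindgut score or the epithelial score as covariate. It was also positive in the 10 libraries left after taking out the 4 with the most negative coordinates named above.

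Cyp27b1, the activating hydroxylase gene, was at the edge of detection, with 18 counts over the 7 B. thetaiotaomicron libraries and 30 over the 7 PBS libraries. It had 0 to 0.502 CPM with the bacterium (median 0.143) and 0.0700 to 0.477 CPM with PBS (median 0.260). The groups overlapped, with the single highest value in B. thetaiotaomicron sample 1. The mean log2 CPM differed by -0.51 (two-sided exact permutation p = 0.164, n = 7 each), and without B. thetaiotaomicron sample 1 by -0.72 (exact permutation p = 0.0396). That sample was the highest of its group, so leaving it out widened the difference. With any other single library left out, the exact permutation p was 0.0746 to 0.311. No library held more than 8 counts.

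Cyp24a1, the hydroxylase gene that ends the signal, had 0 counts in every library. Over 208339429 counts, a count of 0 allows a level of up to 0.0144 CPM, and in a single library up to between 0.179 and 0.228 CPM, by counting error only. The table holds 4018 genes at 0 in all 14 libraries. Among them is Mt2, a metallothionein gene active in most tissues, while its neighbour Mt1 averaged 106 FPKM. So a 0 in this table need not mean that no RNA was present, and whether Cyp24a1 was expressed was not testable here.

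Trpv6, the entry channel gene, had 0.202 to 5.31 CPM in B. thetaiotaomicron libraries (median 0.616) and 0 to 4.77 CPM in PBS libraries (median 0.471). A few libraries held most of its reads: B. thetaiotaomicron samples 3 and 7 had 75 and 55 counts and PBS samples 3 and 1 had 80 and 56 counts, together 81.3% of all counts for the gene. PBS samples 2 and 6 had none. The means were 1.60 ± 2.04 CPM with the bacterium and 1.57 ± 2.11 CPM with PBS (SD, n = 7 each). The mean log2 CPM differed by 0.53 (two-sided exact permutation p = 0.608, n = 7 each). Fitted in edgeR with no count filter, its log2 fold change was 0.04 ± 1.04 (SE; adjusted p = 0.999), an error too wide to place the direction. With the same 4 libraries taken out, the difference of mean log2 CPM was 1.78 (exact permutation p = 0.0381, 6 against 4 libraries), a comparison added after the data were seen. PBS samples 2, 4 and 6, with 0, 1 and 0 counts, make up most of the PBS group there. The PBS samples taken out, 1, 3 and 5, held 56, 80 and 18 of the 163 PBS counts. B. thetaiotaomicron sample 3, also taken out, held 75 of 164 in its group. Trpv6 itself had r = -0.80 with the first principal component. The choice of these libraries was thus not independent of the gene's level, and this p cannot be read as a test of the gavage. Trpv5, the renal paralog of the channel, was at 0 in all libraries.

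S100g, the calbindin-D9k gene, had 0 to 4.11 CPM in B. thetaiotaomicron libraries (median 0.0674) and 0 to 34.0 CPM in PBS libraries (median 8.31). In counts, the B. thetaiotaomicron libraries 1 to 7 had 1, 4, 58, 1, 0, 0 and 40, and the PBS libraries 1 to 7 had 304, 0, 337, 128, 485, 1 and 14. The 4 highest values were all PBS libraries and held 91.3% of the gene's counts, while 2 other PBS libraries, samples 2 and 6, had 0 and 1 count, so the groups overlapped at the bottom. The means were 1.03 ± 1.67 CPM with the bacterium and 12.4 ± 13.6 CPM with PBS (SD, n = 7 each). The log2 fold change fitted by edgeR was -3.60 ± 1.29 (SE; adjusted p = 0.207), so it did not pass, and its unadjusted edgeR p was 0.0152. Without the 4 libraries it could be compared only by permutation, and the mean log2 CPM then differed by -1.15 (exact permutation p = 0.438, 6 against 4 libraries). By the exact permutation test, added after the data were seen, the mean log2 CPM differed by -2.85 (two-sided p = 0.0868, n = 7 each). Within groups, the SD of log2 CPM averaged 2.82, larger than for 99.9% of genes tested, whose median was 0.20. The gene has 480 exonic bases on GRCm38 and lies inside Ctps2, a cytidine triphosphate synthase gene on the opposite strand, with 0 exonic bases shared. Ctps2 had 23.5 to 33.8 CPM in B. thetaiotaomicron libraries and 28.3 to 34.3 CPM in PBS libraries, so it did not spread as S100g did.

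Atp2b1, the exit pump gene, had 202 to 273 CPM in B. thetaiotaomicron libraries (median 235) and 207 to 315 CPM in PBS libraries (median 283). The 4 highest libraries were PBS samples 3, 4, 5 and 6, while PBS sample 2 was the second lowest of all. The means were 238 ± 24.7 CPM with the bacterium and 273 ± 37.2 CPM with PBS (SD, n = 7 each). The log2 fold change was -0.20 ± 0.09 (SE), with an unadjusted p of 0.0423 and an adjusted p of 0.309 by edgeR, so it did not pass. Its sign held in each alternative run, from -0.26 to -0.13.

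**Figure D2:**
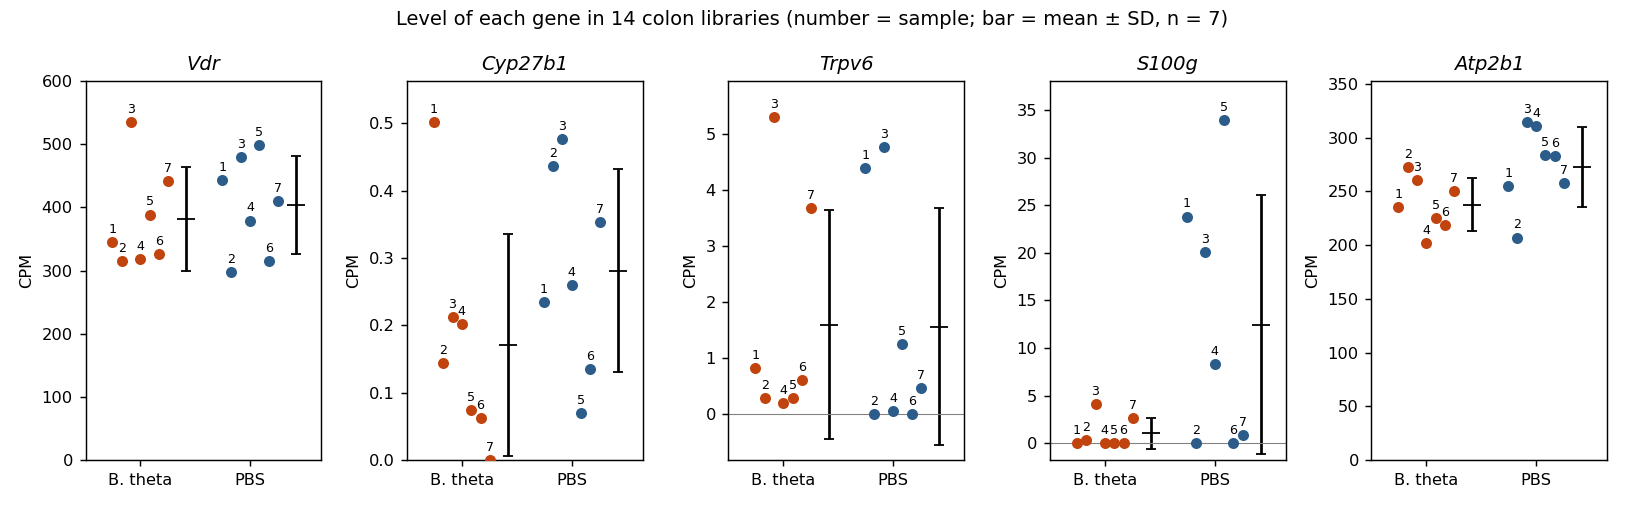
CPM of the 5 detected genes in each library, with the sample number above each point and black bars for mean ± SD (n = 7 each), B. thetaiotaomicron left of PBS. The S100g points above 5 CPM are all PBS libraries, whereas the Trpv6 points above 3 CPM are 2 libraries of each group.

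The members lie on 5 chromosomes. On GRCm38, by GENCODE M21, Vdr (ENSMUSG00000022479) spans 97854425 to 97910630 on chromosome 15, Trpv6 (ENSMUSG00000029868) 41620624 to 41636405 on chromosome 6, and S100g (ENSMUSG00000040808) 162961992 to 162964599 on chromosome X, all on the minus strand. Cyp24a1 (ENSMUSG00000038567) spans 170482708 to 170497145 on the minus strand of chromosome 2. Chromosome 10 holds both Cyp27b1 (ENSMUSG00000006724), at 127048250 to 127053006, and Atp2b1 (ENSMUSG00000019943), at 98914406 to 99026143, on the plus strand. All are protein-coding.

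Vdr and Trpv6 varied together across libraries of both groups, and S100g followed them in PBS libraries. Most B. thetaiotaomicron libraries held too few S100g counts to rank. Over 14 libraries, log2 CPM of Vdr and Trpv6 had Pearson's r of 0.82 and Spearman's rho of 0.87, Vdr and S100g 0.82 and 0.74, and Trpv6 and S100g 0.65 and 0.56. Without the 2 libraries farthest from the median on the first-named gene, r was 0.81, 0.81 and 0.56. Within the 7 B. thetaiotaomicron libraries rho was 0.86 for Vdr and Trpv6, 0.36 for Vdr and S100g and 0.45 for Trpv6 and S100g. Within the 7 PBS libraries it was 0.88, 0.93 and 0.81. In the B. thetaiotaomicron samples other than 3 and 7, S100g had only 0 to 4 counts. Most of its ranks in that group thus rest on counting noise. Samples 3 and 7 were the highest of that group for Vdr, Trpv6 and S100g alike. Trpv6 was low as well, with 3 to 13 counts in the other B. thetaiotaomicron samples and 0 to 18 counts in PBS samples other than 1 and 3. Many of its ranks thus also rest on few counts. The difference in rho between groups was not tested. These are descriptions: both genes of a pair were read in the same library and from the same piece of tissue. Atp2b1 followed S100g (r = 0.70, rho = 0.70) more than Trpv6 (r = 0.25, rho = 0.23).

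The levels of the members also moved with several marker scores. Against the distal hindgut score, Trpv6 had r = 0.86 and rho = 0.85 and Vdr r = 0.83 and rho = 0.82 over 14 libraries. S100g had r = 0.68 and rho = 0.54 and Atp2b1 r = 0.39 and rho = 0.32. Without PBS samples 3 and 1, the farthest on the score, r was 0.80 for Trpv6, 0.84 for Vdr, 0.48 for S100g and 0.18 for Atp2b1. Against the epithelial score, the mean log2 CPM of epithelial markers, the relation was negative, with r = -0.82 and rho = -0.87 for Vdr, r = -0.69 and rho = -0.695 for Trpv6, r = -0.75 and rho = -0.69 for S100g and r = -0.57 and rho = -0.55 for Atp2b1. Against the smooth muscle score, rho was -0.565 for Vdr, -0.54 for Trpv6, -0.68 for S100g and -0.57 for Atp2b1. By rho, Vdr, S100g and Atp2b1 thus followed the epithelial score more closely than the distal score, and Trpv6 the distal score. S100g and Atp2b1 each followed the smooth muscle score, by rho, about as closely as the epithelial score. For Vdr, r was of nearly the same size with the distal score (0.83) as with the epithelial score (-0.82). The epithelial score is a mean of 15 markers that spread unequally. In PBS libraries Cdx2 had 25.5 to 401 CPM and Epcam 1418 to 1750 CPM. How far the score reflects epithelial content was not tested. The epithelial score was 9.28 to 9.60 in B. thetaiotaomicron libraries (median 9.46) and 8.99 to 9.502 in PBS libraries (median 9.33). The smooth muscle score was 7.20 to 8.22 in B. thetaiotaomicron libraries (median 7.94) and 7.47 to 8.34 in PBS libraries (median 7.91). Hoxb13, a transcription factor gene of the distal hindgut, shows the same libraries: B. thetaiotaomicron samples 3 and 7 had 376 and 263 CPM and PBS samples 1, 3 and 5 had 408, 470 and 437 CPM, and the remaining libraries lay at or below 125 CPM. The B. thetaiotaomicron group had the lower median of the distal hindgut score and the lower S100g level. The labels do not give the part of the colon, so position and gavage cannot be told apart here. With the distal hindgut score as covariate, S100g had a log2 fold change of -3.13 (edgeR adjusted p = 0.235). With an epithelial score as covariate it had -2.20 (edgeR adjusted p = 0.497).

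S100g departed from the distal score in PBS sample 4. There Hoxb13 was at 0.195 CPM and Trpv6 at 1 count, yet S100g had 128 counts. S100g and Trpv6 also stood in different proportion among the 6 libraries with at least 8 counts of both genes. In FPKM, S100g was 6.34 and 5.96 times Trpv6 in B. thetaiotaomicron samples 3 and 7, against 44.5, 34.5, 221 and 14.4 times in PBS samples 1, 3, 5 and 7. This minimum was chosen after the values were seen, so this is a description with no test.

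**Figure D3:**
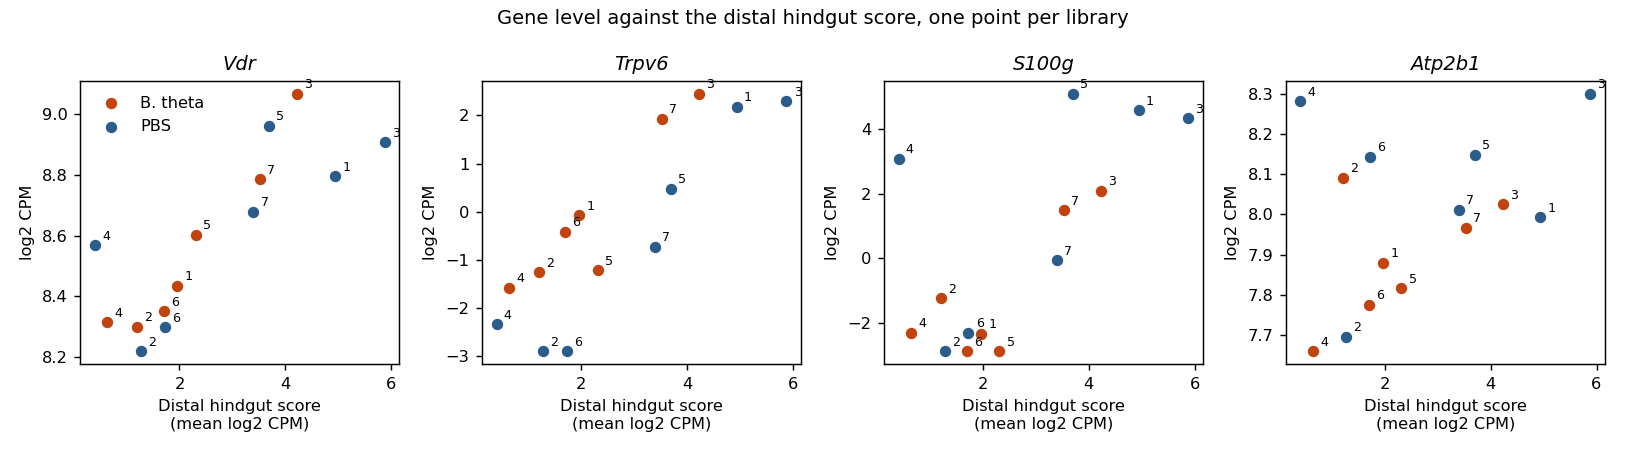
Log2 CPM of Vdr, Trpv6, S100g and Atp2b1 against the distal hindgut score, 1 point per library, with sample numbers. Vdr and Trpv6 climb with the score in both groups, whereas in the S100g panel PBS sample 4 lies far above the other libraries of low score.

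The genes with patterns most like the members were ranked by Spearman's rho of log2 CPM over the 14 libraries, among 13656 tested genes with a mean of at least 1 CPM. Among those closest to Vdr were Sord, which encodes sorbitol dehydrogenase (rho = 0.99), and Slc44a1, a choline transporter gene, and Reg4, a secreted lectin gene (rho = 0.97 each). Within the 7 B. thetaiotaomicron libraries Sord had rho = 0.96, and within the 7 PBS libraries the same rank order. Reg4 had 85.4 and 180 CPM in B. thetaiotaomicron samples 7 and 3, and 123, 182 and 179 CPM in PBS samples 1, 3 and 5, while the other libraries had 5.54 to 27.4 CPM. The genes most opposed to Vdr were Mapk1ip1l and C1galt1, the core O-glycan galactosyltransferase gene (rho = -0.95 each). Those closest to S100g were Slc39a5, a zinc transporter gene (rho = 0.97), Mtx2, a mitochondrial import gene (0.95), Cyb5a, which encodes cytochrome b5 (0.94), and Zbtb7b, a transcription factor gene (0.94). Ccn3, a matricellular protein gene, was the most opposed (rho = -0.95), followed by Pde8a, a phosphodiesterase gene (-0.94). In B. thetaiotaomicron samples other than 3 and 7, and in PBS samples 2 and 6, S100g had only 0 to 4 counts. Its ranks among these libraries rest largely on counting noise. Those closest to Atp2b1 were Pcyox1, a prenylcysteine oxidase gene (rho = 0.93), Sema3c, a semaphorin gene (0.92), Ugt2b34, a glucuronosyltransferase gene, and Zfp35, a zinc finger gene (0.90 each). Ocstamp and Bspry were the most opposed (-0.91 and -0.90).

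Other genes of the pathway were read from 5 lists of background knowledge, 68 genes in all, of which 55 passed the count filter. Over all genes tested, 15.2% had an unadjusted edgeR p under 0.05, and DESeq2 called 3.18%. None of the 55 passed over all genes tested in edgeR, 6 had an unadjusted p under 0.05, and limma-voom called 0. DESeq2 called 1, Cyp3a13, a steroid-hydroxylating cytochrome gene with close paralogs, with a DESeq2 log2 fold change of -0.47 ± 0.14 (SE; DESeq2 adjusted p = 0.0371). In edgeR, 27 had positive and 28 negative fold changes, with a median log2 fold change of -0.02 beside -0.01 over all genes tested.

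Among 10 genes of vitamin D metabolism and transport, 6 were tested, 0 passed, and the median log2 fold change was -0.26. Cyp3a13 had 164 ± 37.0 CPM with the bacterium and 227 ± 36.2 CPM with PBS (SD, n = 7 each; edgeR adjusted p = 0.133). Cyp27a1, a sterol hydroxylase gene that can also hydroxylate vitamin D, had 21.2 ± 6.66 CPM with the bacterium and 35.7 ± 13.2 CPM with PBS (SD, n = 7 each; edgeR adjusted p = 0.191). Cubn, a receptor gene for filtered vitamin D binding protein in kidney, was low, with a log2 fold change of -0.99 ± 0.34 (SE; edgeR adjusted p = 0.185). Cyp2r1, the main 25-hydroxylase gene of liver, averaged 2.09 CPM with the bacterium and 2.14 CPM with PBS, a log2 fold change of -0.04 ± 0.21 (SE). Dhcr7, which removes the vitamin D precursor in cholesterol synthesis, had 0.11 ± 0.09 (SE) on the log2 scale, and Gc, which encodes the binding protein of plasma, was at 0.

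Fold changes of the receptor's partners and coregulators were small. Of 14 genes, 13 were tested and 0 passed, and their log2 fold changes lay between -0.10 for Ncoa3 and 0.14 for Brd9. Rxra, a retinoid X receptor gene, had 132 to 166 CPM in B. thetaiotaomicron libraries and 124 to 167 CPM in PBS libraries, and its log2 fold change was 0.07 ± 0.07 (SE; edgeR adjusted p = 0.651). Rxrb had -0.03 ± 0.06 (SE), Med1, a Mediator subunit gene, -0.06 ± 0.05 (SE) and Ncor1, a corepressor gene, 0.02 ± 0.06 (SE). Rxrg was below the filter.

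Other genes that vitamin D can induce had wide spreads. Of 14, 12 were tested and 0 passed: 2 had positive and 10 negative fold changes, with a median of -0.30, and without the 4 libraries named above the median was -0.06. Trpm6, a magnesium channel gene, had 137 ± 95.8 CPM with the bacterium and 292 ± 220 CPM with PBS (SD, n = 7 each; edgeR adjusted p = 0.45). Slc37a2, a sugar phosphate carrier gene, ranged from 5.74 to 852 CPM in B. thetaiotaomicron libraries and from 4.55 to 957 CPM in PBS libraries. Slc30a10, a manganese exporter gene, had 3.03 ± 2.63 CPM with the bacterium and 6.39 ± 7.64 CPM with PBS (SD, n = 7 each). Igfbp3 had -0.48 ± 0.24 (SE), Cldn12, a claudin gene of calcium-permeable junctions, -0.15 ± 0.08 (SE) and Slc34a2, a phosphate transporter gene, -0.77 ± 0.41 (SE) on the log2 scale. Cldn2, another claudin gene of cation passage, and Abcb1a, a drug efflux pump gene, each had 0.01 with SE of 0.17 and 0.19.

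Among 25 other genes of calcium transport and buffering, 23 were tested and 0 passed, with 14 positive and 9 negative fold changes and a median of 0.05. Stc1, which encodes stanniocalcin-1, had -0.63 ± 0.22 (SE; edgeR adjusted p = 0.185) at 1.87 ± 0.622 CPM with the bacterium and 2.90 ± 0.704 CPM with PBS (SD, n = 7 each). S100a10 and Anxa2, whose products bind TRPV6 and bring it to the membrane, had 0.05 ± 0.09 (SE) and 0.18 ± 0.11 (SE), and Rab11a, a recycling GTPase gene, 0.10 ± 0.05 (SE). Atp2b4, another plasma membrane calcium pump gene, averaged 11.5 FPKM and had 0.09 ± 0.15 (SE). Calb1, the calbindin gene of kidney and brain, was below the filter. Of 9 genes of calcium hormone sensing, 4 were tested, 0 passed and the median was 0.02. Casr, the calcium-sensing receptor gene, was too low to test, with 0.316 ± 0.346 CPM with the bacterium and 0.258 ± 0.189 CPM with PBS (SD, n = 7 each).

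**Figure D4:**
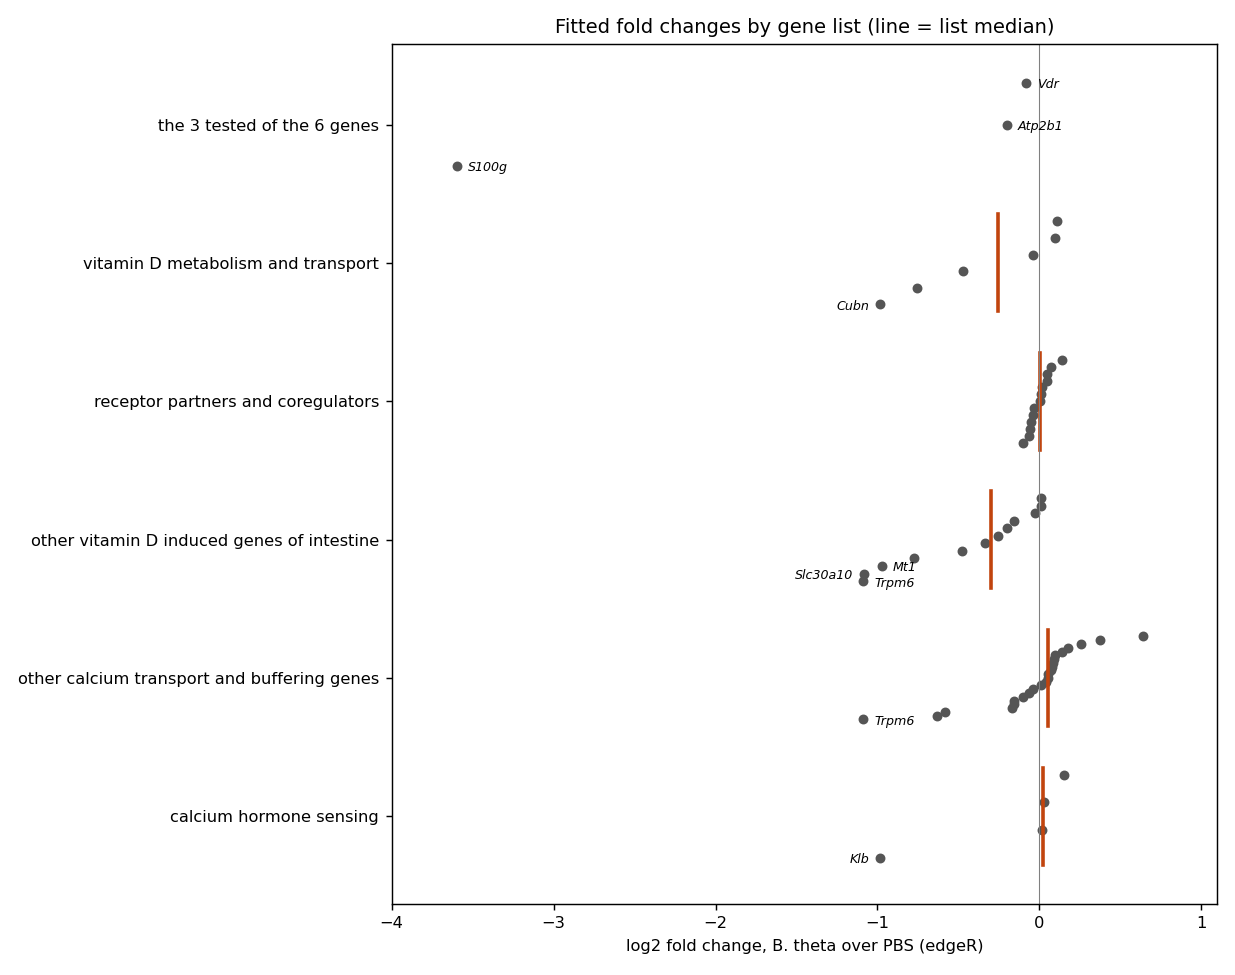
Log2 fold changes of B. thetaiotaomicron over PBS by edgeR, 1 point per tested gene, for the 3 tested members and 5 lists, with a vertical line at the median of each list. S100g lies at -3.60, and most genes of the other lists lie within 1 unit of 0.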

How the data were processed

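The authors deposited raw read counts and FPKM values for 21898 genes in 1 table, per the file headers. The deposited FPKM equalled the count over gene length and library total. RNA was column-purified and libraries were built with an mRNA kit, per the labels' protocols. The submitters' processing notes name GRCm38 and mm10. No source used here names the aligner, the counter or the use of strand. The table's coordinates differ from GENCODE M21 on GRCm38, so positions were looked up there by identifier, and start windows in RefSeq on GRCm38.p6. Columns were matched by library name, which also gave the sample numbers, and groups by title. One row without an identifier was left out.

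In R 4.3.3, genes passing filterByExpr (minimum count 10, minimum total 15; 14070 genes) were scaled by TMM and tested by group with edgeR 4.0.16 (robust quasi-likelihood). P-values were adjusted by Benjamini-Hochberg across all of these, at a threshold of 0.05. An SE is the log2 fold change over the root of F, and intervals of about 95% use the normal quantile. Log2 CPM used a prior count of 2. For Trpv6 and Cyp27b1, below the filter, a two-sided exact permutation test over 3432 arrangements was used. The test was checked on simulated counts. Alternatives were DESeq2 1.42.0, limma-voom (limma 3.58.1), other scalings, filters and priors, covariates, a replicate block and leaving out libraries. Totals of 13150140 to 16781708 counts and a coefficient of variation of 0.21 set the precision. Floors (3 counts) cover counting error only.

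Members, lists and the libraries left out were chosen with earlier results of these data known. Named are the 6 members, up to 5 genes of each list with the smallest p, those past the threshold, and, per tested member, the 4 most alike and 2 most opposed genes by Spearman's rho. One gene that this rule selects is not reported here. List genes named beyond these were picked after their values were seen.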

Additional observations from a re-analysis of the deposited data

Results flagged for a closer look

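Cyp27b1 in B. thetaiotaomicron sample 1, at 0.502 CPM, lay far above the next library of its group at 0.212 CPM, a gap of 0.577 of the group's range. It rests on 8 counts, beside 0 to 3 counts in the other libraries of the group.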

How the results depend on the processing

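Vdr, S100g and Atp2b1 passed in none of the alternative fits, and S100g and Atp2b1 kept their sign in each that tested them. S100g ranged from -4.57 to -2.20 on the log2 scale in these fits, and was -1.15 by exact permutation without 4 libraries (B. thetaiotaomicron sample 3 and PBS samples 1, 3 and 5), where, as under a filter of 1 CPM in 7 samples, it fell below the count filter. Vdr was positive at 0.027 with the distal hindgut covariate, 0.16 with the epithelial covariate and 0.025 without the 4 libraries, and the cause was not tested. Trpv6 differed by 1.78 without the 4 libraries, by 1.07 with a prior count of 0.5 and by 0.12 to 1.01 when single libraries were left out. Where edgeR could test it, its log2 fold change lay between -0.19 and 0.23, of either sign. Cyp27b1 differed by -0.87 with a prior count of 0.5 and by -0.72 to -0.34 when single libraries were left out. The count of all genes passing was 35 in edgeR, 447 in DESeq2, 15 with the replicate block, 80 with the smooth muscle covariate, 0 with the epithelial covariate (1678 at an unadjusted p under 0.05), 0 without the 4 libraries (1481) and 0 to 121 when single libraries were left out, highest without PBS sample 2. Other pathway genes passing numbered 0 in edgeR and 1 in DESeq2. Same-numbered samples did not all deviate together: their correlations ran from -0.26 to 0.602, and 4 of 7 pairs were over 0.1. Of the 7 B. thetaiotaomicron samples, 1 was most like its own number. Whether same-numbered samples share more than a number cannot be told from these values. The replicate block changed no member's call. Depth limits Cyp27b1, which had 0 to 8 counts per library.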
